A study of Mus musculus with 42 samples.

Results

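Macrophages limit their own cytokine output by destroying the messages, and 8 genes that control the decay or the stability of cytokine transcripts were followed here in mouse bone-marrow-derived macrophages (BMDM). They were taken from a table of 37310 genes by matching Ensembl identifiers to the symbols Zfp36, Zfp36l1, Zfp36l2, Zc3h12a, Zc3h12c, Rc3h1, Rc3h2 and Elavl1. Each had 1 row, and all 8 passed the filter on low counts that left 11624 genes for testing. The rule that picked them names genes and uses no measured value, although it was written with earlier results of these data known.

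RNA was sequenced from BMDM of mice labelled WT and of mice labelled KO, in which Irf5 was to be deleted in myeloid cells by crossing floxed Irf5 mice with LysM-Cre mice, where Cre is expressed from the Lyz2 locus. Both parent lines were on a C57BL/6 background by name, and the study's mice were male and, by the ages its methods give, young adult. Cells were collected at 0 h (Control), and at 2 h and 24 h as Control, with bacterial lipopolysaccharide (LPS) or with palmitate, a long-chain saturated fatty acid. This made 14 groups of 3 libraries, 42 in all. The labels do not say whether the 3 libraries of a group came from separate animals, so p-values measure the spread between these libraries, which may in part be technical.

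As background, the Zfp36 family (Zfp36, also called tristetraprolin, with Zfp36l1 and Zfp36l2) binds AU-rich elements in the 3′ untranslated region (UTR) of short-lived messages and recruits the CCR4-NOT deadenylase. Zc3h12a (Regnase-1) and Zc3h12c (Regnase-3) belong to a family of endoribonucleases, and Regnase-1 cleaves stem-loops in the messages of Il6 and other cytokines. Rc3h1 (Roquin-1) and Rc3h2 (Roquin-2) bind stem-loops of the same kind and also recruit deadenylases, whereas Elavl1 (HuR) binds AU-rich and U-rich sequences and is best known for stabilising its targets. In macrophages, loss of tristetraprolin or of Regnase-1 is known to leave Tnf or Il6 messages long-lived.

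The 3′UTRs of these regulators themselves hold the sequence that the Zfp36 family recognises. The nonamer TTATTTATT, read on the sense strand of the transcript with the longest coding sequence, occurred in 6 of the 8 genes (75%), against 784 of 10779 tested genes with a 3′UTR (7.27%). The 8 UTRs were also longer, with a median of 2628 bases against 981. The pentamer ATTTA, which overlaps itself within the nonamer, had a median density of 3.69 per kilobase in the regulators and 1.24 in the tested genes. Zfp36, Zfp36l1, Zfp36l2, Rc3h1 and Rc3h2 had 1 nonamer each, Elavl1 had 8 overlapping or adjacent copies, and Zc3h12a and Zc3h12c had none. Of the 17 target transcripts listed below, 6 (35.3%) held the nonamer, with 5 copies in Tnf and none in Il6 or Il1b. The median pentamer density of the targets was 8.5 per kilobase. The sites of the regulators are shown, with a site of Tnf for comparison, because they match the element through which the family acts. Each is 29 bases from the GRCm38/mm10 transcript, 5′ to 3′, with the nonamer in capitals:
Zfp36 3′UTR, chr7:28376951-28376979, minus strand: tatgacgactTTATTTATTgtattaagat
Zfp36l1 3′UTR, chr12:80108167-80108195, minus strand: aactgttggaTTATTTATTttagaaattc
Zfp36l2 3′UTR, chr17:84184914-84184942, minus strand: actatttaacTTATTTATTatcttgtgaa
Rc3h1 3′UTR, chr1:160970043-160970071, plus strand: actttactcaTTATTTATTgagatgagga
Rc3h2 3′UTR, chr2:37373287-37373315, minus strand: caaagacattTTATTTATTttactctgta
Elavl1 3′UTR, the copy nearest to the stop codon, chr8:4285788-4285816, minus strand: gtcatgaaaaTTATTTATTtatttattta
Tnf 3′UTR, the first of its 5 copies, chr17:35199689-35199717, minus strand: tttgcacttaTTATTTATTatttatttat
A match to these letters is a description of the transcript and does not show binding.

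The deposited counts summed to between 2848793 and 7743442 per library (median 5625399), so that 3 counts, taken as the limit of detection, were worth 0.387 to 1.05 CPM, the library-scaled count unit used throughout, for counting error only. The regulators had 98 to 3400 counts in every library. All 8 macrophage markers (among them Adgre1, Cd68 and Csf1r) exceeded 3 counts in all libraries, with a summed level of 9800 to 23595 CPM, whereas the 4 erythroid and the 4 T or NK cell markers summed to at most 0.369 and 1.90 CPM. Irf5 itself went against the label, at 210 to 389 CPM in the libraries labelled WT and 267 to 430 CPM in those labelled KO, with every KO library above every WT library in 6 of 7 conditions. A count over the whole gene does not measure the floxed part, so it does not check the deletion. For Lyz2, the locus that carries Cre, all KO libraries lay below all WT libraries in each of the 7 conditions. The log2 difference was smallest at Control 0 h, at −0.51, against −0.74 to −1.11 in the other conditions. The KO libraries were also most spread there, at 7170 ± 1703 CPM (SD, n = 3).

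Before any stimulus the Zfp36 family transcripts were the most abundant of the 8 per length. In the libraries labelled WT at Control 0 h, mean levels were 86.3 ± 5.84 CPM per kilobase of merged exons (SD, n = 3) for Zfp36l2, 53.3 ± 4.26 for Zfp36l1 and 19.9 ± 2.54 for Zfp36. The remaining 5 lay between 4.19 ± 0.237 CPM per kilobase (Rc3h2) and 9.29 ± 0.264 (Rc3h1). Lengths matter most for Rc3h2 and Elavl1, whose levels became 9.20 and 14.2 CPM per kilobase with the longest coding transcript in place of the merged exons. All 8 are on GRCm38/mm10 as protein-coding genes: Zfp36 at chr7:28376784-28380253, Zfp36l1 at chr12:80107754-80113013, Zfp36l2 at chr17:84183931-84187947, Zc3h12a at chr4:125118423-125127840, Zc3h12c at chr9:52111344-52168572, Rc3h1 at chr1:160906418-160974978, Rc3h2 at chr2:37370069-37422903 and Elavl1 at chr8:4285382-4325413. Exons of Zfp36, Zfp36l1, Zfp36l2, Zc3h12c and Elavl1 overlap a gene on the other strand. The strand setting of the counting is not given in the sources used here, so reads of such neighbours could not be told apart from theirs. For Elavl1 that neighbour, Ccl25, reached at most 21 counts. The neighbours of Zfp36, Zfp36l1, Zfp36l2 and Zc3h12c had no row in the count table, so their level could not be looked up. The overlap was largest for Zfp36l1, at 1672 of its 2990 exon bases.

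**Figure D1:**
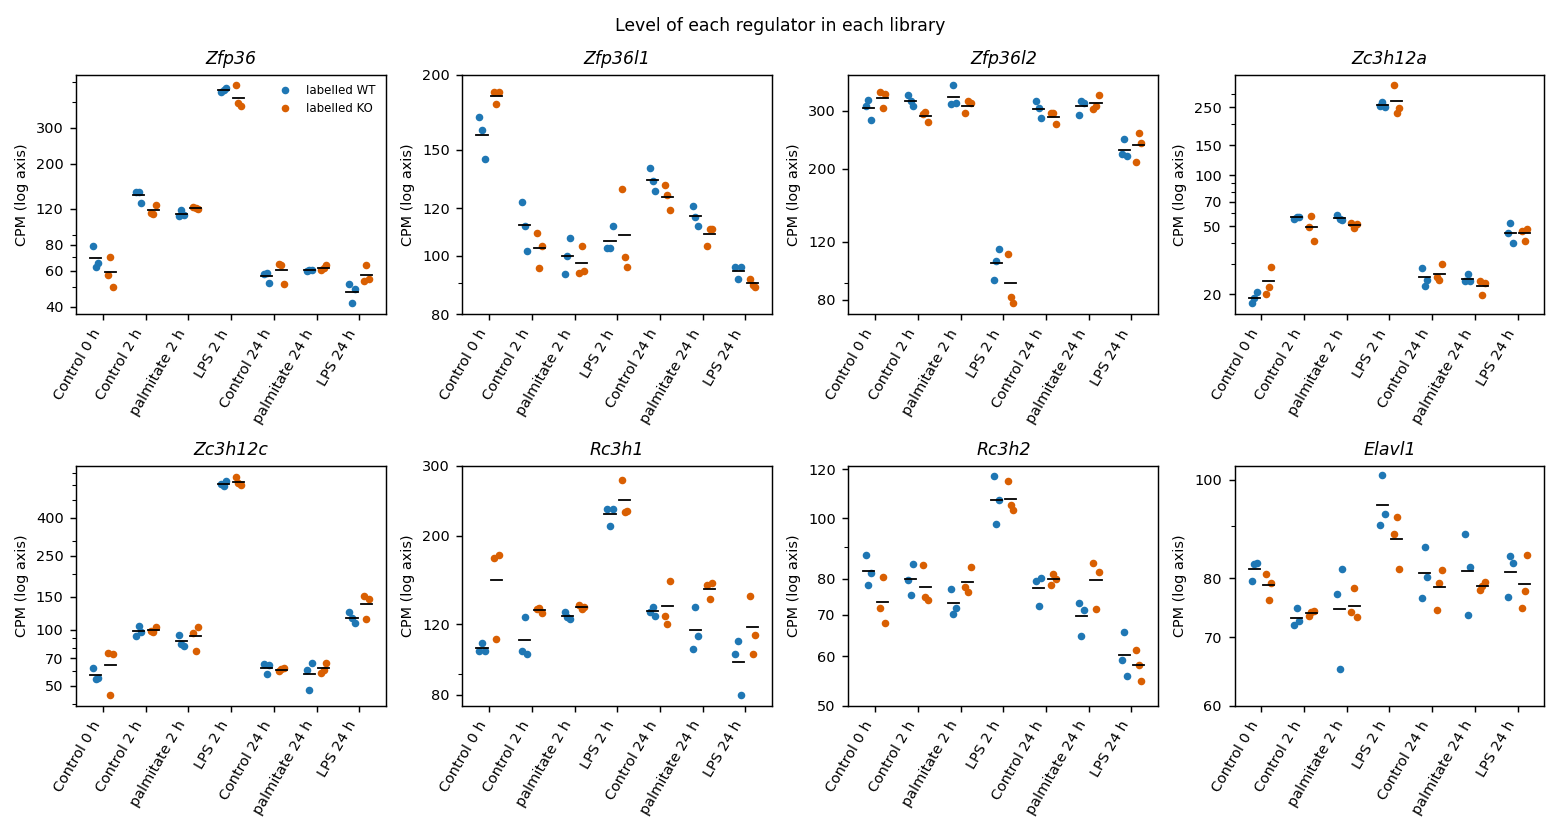
Level of each regulator in each of the 42 libraries, in CPM on a log axis (a different range in each panel), against the 7 conditions; points are libraries, blue labelled WT and orange labelled KO, and black lines are group means. Zfp36, Zc3h12a, Zc3h12c, Rc3h1 and Rc3h2 peaked at LPS 2 h in both genotypes, whereas Zfp36l2 was lowest there.

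Across the 14 groups the 8 genes spanned very different ranges. The highest group mean was 14.3 times the lowest for Zc3h12a, 10.98 times for Zc3h12c, 9.68 times for Zfp36 and 3.67 times for Zfp36l2, but 2.54 times for Rc3h1, 2.05 times for Zfp36l1, 1.86 times for Rc3h2 and 1.29 times for Elavl1. When the groups were ordered by mean level, most neighbours could not be separated: for Elavl1 the libraries of all 13 neighbouring pairs overlapped, for Rc3h1 and Rc3h2 12 of 13, for Zfp36l1 and Zfp36l2 11 of 13, for Zc3h12a and Zc3h12c 10 of 13, and for Zfp36 9 of 13. The gap that recurred was that below the LPS 2 h groups, which were the highest for Zfp36, Zc3h12a, Zc3h12c, Rc3h1 and Rc3h2. For Zfp36l2 the same 2 groups stood apart at the bottom.

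What LPS did to these regulators within 2 h was the first comparison. Against Control at the same time, 6 of the 8 rose and 1 fell in the libraries labelled WT, and the same 6 rose and the same 1 fell in those labelled KO. The regulators thus passed the test in 7 of 8 cases per genotype, beside 23.1% of all tested genes for WT and 23.9% for KO. Their libraries did not overlap with Control for those 7 genes in either genotype, against 35.2% and 34.1% of all tested genes. In bulk RNA, fewer cells of a type and less RNA per cell cannot be told apart.

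Zfp36, the prototype of the family, had 145, 146 and 129 CPM in the WT Control libraries at 2 h and 446, 460 and 470 CPM with LPS. The LPS libraries were all far above Control, a 3.28-fold rise (log2 fold change 1.71 ± 0.09 SE, adjusted p = 9.56e-23). In the libraries labelled KO it went from 115, 114 and 126 CPM to 482, 395 and 382 CPM, a 3.52-fold rise (log2 1.82 ± 0.09, adjusted p = 1.88e-23).

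Its relative Zfp36l2 moved the opposite way. The WT libraries had 334, 321 and 310 CPM in Control and 91.9, 105 and 114 CPM with LPS. Every LPS library lay under every Control library, and the level was 3.07-fold lower (log2 −1.62 ± 0.09, adjusted p = 1.23e-21). KO values were 294, 298 and 278 CPM against 110, 81.2 and 77.9 CPM, 3.30-fold lower (log2 −1.72 ± 0.09, adjusted p = 3.79e-22).

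Zfp36l1, the remaining member of this family, did not pass the test at 2 h. It had 123, 112 and 102 CPM in WT Control and 103, 103 and 112 CPM with LPS, ranges that overlap (log2 −0.08 ± 0.08, adjusted p = 0.555). The KO libraries gave 109, 95.6 and 104 CPM against 129, 99.7 and 95.8 CPM (log2 0.05 ± 0.08, adjusted p = 0.737).

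The endonuclease genes rose most. Zc3h12c went from 92.3, 105 and 96.6 CPM in WT Control to 610, 594 and 631 CPM with LPS, a 6.24-fold rise (log2 2.64 ± 0.11, adjusted p = 2.31e-26). In the KO libraries it went from 98.1, 97.0 and 104 CPM to 666, 613 and 601 CPM, a 6.28-fold rise (log2 2.65 ± 0.11, adjusted p = 2.08e-26). No LPS library of either genotype came near its Control group.

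Zc3h12a, the Regnase that acts on Il6, went from 55.6, 57.1 and 56.8 CPM to 253, 267 and 252 CPM in the WT libraries, a 4.56-fold rise (log2 2.19 ± 0.11, adjusted p = 5.84e-23). The KO libraries had 49.9, 57.6 and 40.9 CPM in Control and 336, 230 and 249 CPM with LPS, a 5.45-fold rise (log2 2.45 ± 0.11, adjusted p = 1.35e-24). With LPS the first KO library was above every WT library and the other KO libraries were below every WT library. That first KO library had the lowest total count of all 42, 2848793. Its chi-square per degree of freedom was 9.32 and 7.76 against the others of its group, which gave 2.94 between them. For every regulator but Elavl1 it was the highest of the KO LPS 2 h libraries.

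The Roquin genes rose less. Rc3h1 had 103, 125 and 101 CPM in WT Control and 234, 212 and 234 CPM with LPS, a 2.05-fold rise (log2 1.04 ± 0.12, adjusted p = 2.86e-10), and the KO libraries went from 131, 132 and 128 CPM to 276, 230 and 231 CPM, a 1.88-fold rise (log2 0.91 ± 0.12, adjusted p = 7.85e-09). Rc3h2 rose 1.33-fold in WT, from 79.6, 75.3 and 84.6 CPM to 117, 97.8 and 107 CPM (log2 0.41 ± 0.08, adjusted p = 8.77e-05). Its KO libraries rose 1.38-fold, from 84.0, 74.8 and 73.8 CPM to 115, 105 and 103 CPM (log2 0.47 ± 0.08, adjusted p = 1.21e-05). The groups did not overlap for either gene.

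Elavl1, the stabilising factor, changed least among those that passed. WT libraries had 72.0, 74.9 and 72.6 CPM in Control and 90.2, 101 and 92.5 CPM with LPS, a 1.30-fold rise (log2 0.38 ± 0.08, adjusted p = 0.00015). KO libraries had 73.5, 74.1 and 74.3 CPM against 88.5, 92.0 and 81.7 CPM, a 1.18-fold rise (log2 0.24 ± 0.08, adjusted p = 0.0197). The KO call was the weakest of the 14: it was lost (adjusted p = 0.0844) when only the libraries compared were fitted, without the expression filter (adjusted p = 0.165), and again (adjusted p from 0.0616 to 0.132) on omitting any of 5 of its 6 libraries.

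**Figure D2:**
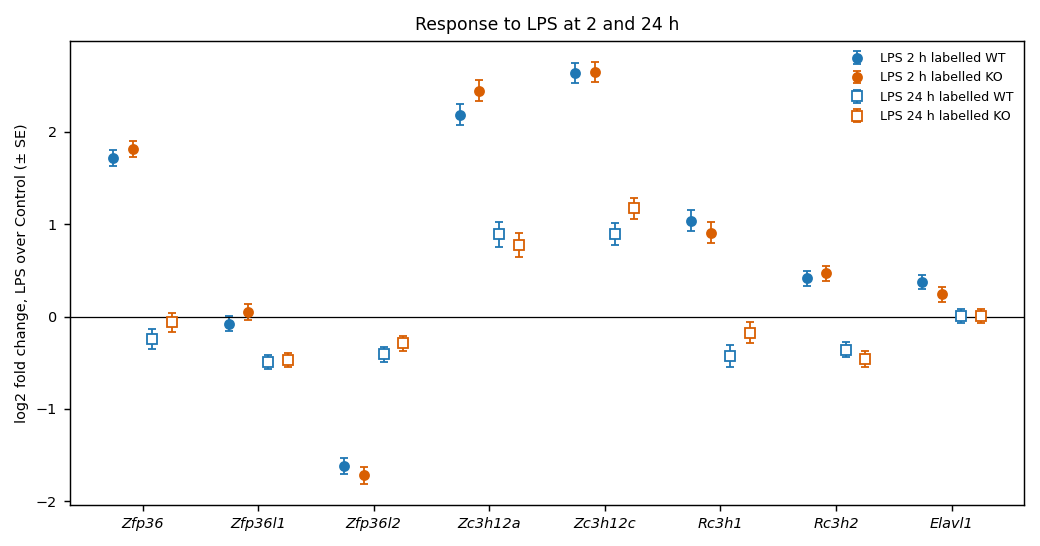
Log2 fold change of LPS over Control at the same time, with its SE, for each regulator (x axis); circles are 2 h and open squares 24 h, blue labelled WT and orange labelled KO. At 2 h, Zc3h12c (2.64 and 2.65) and Zc3h12a stood highest and Zfp36l2 lowest (−1.62 and −1.72), and by 24 h all values lay between −0.49 and 1.17.

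The opposite moves of Zfp36 and Zfp36l2 exchanged the leading transcript of the family. Per kilobase of merged exons, Zfp36 made up 23.9 ± 0.676% of the summed level of the 3 genes in WT Control at 2 h and 67.1 ± 1.04% with LPS, while Zfp36l2 went from 54.0 ± 1.05% to 14.9 ± 1.01% (SD, n = 3). The KO libraries showed 22.7 ± 1.40% and 66.4 ± 1.07% for Zfp36, and 54.5 ± 2.03% and 13.9 ± 0.655% for Zfp36l2. With the longest coding transcripts as lengths, the WT share of Zfp36 was 28.1% in Control and 71.8% with LPS. The summed level itself was 169 ± 9.28 CPM per kilobase in WT Control and 197 ± 8.16 with LPS, and 151 ± 2.08 against 183 ± 26.9 in KO, so that the make-up differed far more than the total. These shares restate levels already tested and were given no test of their own. Of the Regnase pair, Zc3h12a made up 57.8 ± 1.27% of the sum in WT Control at 2 h and 49.96 ± 1.53% with LPS, and in KO 53.8 ± 5.15% and 50.4 ± 3.81%, where the libraries overlapped.

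**Figure D3:**
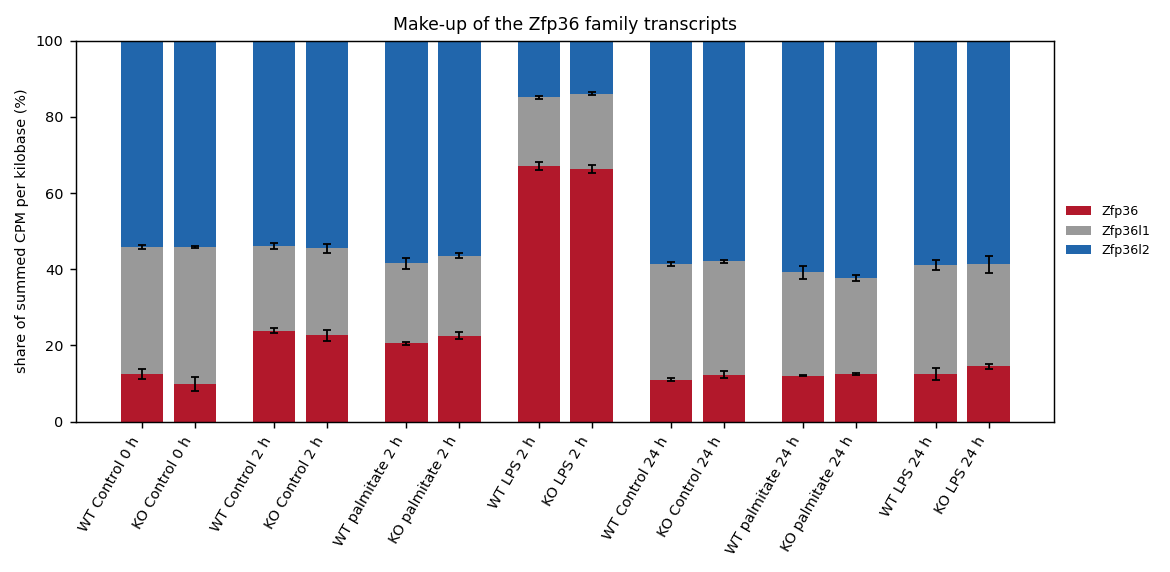
Share of Zfp36 (red), Zfp36l1 (grey) and Zfp36l2 (blue) in their summed CPM per kilobase of merged exons, in percent, for the 14 groups; bars are means of 3 libraries, and the error bars at the top of the red and grey parts are the SD of that part. Zfp36 made up 67.1% and 66.4% of the sum at LPS 2 h, and at most 23.9% in any other group.

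By 24 h of LPS the picture had narrowed to the Regnase genes and to small losses. In the libraries labelled WT 2 regulators were higher than Control and 4 lower, beside 39.5% of all tested genes called. Those labelled KO gave 2 higher and 3 lower, beside 40.9% of all tested genes. Libraries did not overlap with Control for 7 regulators in WT and 5 in KO, against 48.1% and 50.2% of all tested genes.

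Zc3h12c was still 1.86-fold higher in WT, at 125, 115 and 108 CPM against 65.4, 57.4 and 64.4 CPM (log2 0.90 ± 0.12, adjusted p = 9.95e-09), and 2.25-fold higher in KO, at 151, 114 and 146 CPM against 59.8, 61.1 and 62.0 CPM (log2 1.17 ± 0.12, adjusted p = 3.65e-12). Zc3h12a was 1.85-fold higher in WT, at 45.7, 52.5 and 39.8 CPM against 28.6, 22.5 and 24.3 CPM (log2 0.89 ± 0.13, adjusted p = 2.04e-07), and 1.71-fold higher in KO (log2 0.77 ± 0.13, adjusted p = 2.52e-06). Neither gene overlapped with Control in either genotype.

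Zfp36l1, which had not passed at 2 h, was now lower: 96.0, 91.5 and 96.0 CPM against 140, 133 and 128 CPM in WT (log2 −0.49 ± 0.08, adjusted p = 9.42e-07), with −0.47 ± 0.08 in KO (adjusted p = 2.53e-06). Zfp36l2 remained below Control, at 221, 246 and 218 CPM against 320, 306 and 285 CPM in WT (log2 −0.41 ± 0.08, adjusted p = 3.35e-05), and by −0.29 ± 0.08 in KO (adjusted p = 0.00253). All LPS libraries of both genes were under all Control libraries. The KO call for Zfp36l2 moved to an adjusted p of 0.0504 without KO LPS 24 h library 1.

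Zfp36 did not pass the test at 24 h in either genotype. WT libraries had 51.7, 41.5 and 49.0 CPM with LPS against 57.5, 58.6 and 52.4 CPM (log2 −0.24 ± 0.11, adjusted p = 0.067), every one below every Control library, and this became a call (adjusted p = 0.0416) without WT LPS 24 h library 1. In KO the ranges overlapped (log2 −0.06 ± 0.10, adjusted p = 0.664). Elavl1 gave log2 differences of 0.00066 ± 0.08 in WT (adjusted p = 0.997) and 0.0069 ± 0.08 in KO (adjusted p = 0.958), with overlapping libraries.

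Rc3h2, raised at 2 h, was lower than Control at 24 h, at 59.2, 65.7 and 55.7 CPM against 79.2, 72.2 and 80.3 CPM in WT (log2 −0.36 ± 0.08, adjusted p = 0.000526) and by −0.46 ± 0.08 in KO (adjusted p = 1.16e-05). Rc3h1 was lower in WT, at 101, 109 and 79.9 CPM against 129, 133 and 126 CPM (log2 −0.42 ± 0.12, adjusted p = 0.00346). That call was lost without WT LPS 24 h library 3, the lowest of its group (log2 −0.30, adjusted p = 0.0678). The KO libraries, 141, 101 and 113 CPM against 126, 120 and 154 CPM, overlapped (log2 −0.17 ± 0.12, adjusted p = 0.25), and became a call (log2 −0.32, adjusted p = 0.0427) without KO LPS 24 h library 1.

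The change of the LPS effect from 2 to 24 h was tested directly. In the WT libraries all 8 regulators differed between the times, beside 32.6% of all tested genes, and in the KO libraries 7 of 8, beside 33.4%. The difference, 24 h minus 2 h, was below 0 for 7 genes in WT, most for Zfp36 (log2 −1.96 ± 0.14, adjusted p = 6.59e-17) and Zc3h12c (log2 −1.74 ± 0.16, adjusted p = 5.57e-13). A value below 0 was not always a weaker effect. In WT, Zfp36l1 passed the test, downward, only at 24 h, and Rc3h1 and Rc3h2 passed upward at 2 h and downward at 24 h. Only Zfp36l2 moved up between the times among the 8, by 1.21 ± 0.12 in WT (adjusted p = 4.17e-12) and 1.43 ± 0.12 in KO (adjusted p = 3.63e-14). Elavl1 was the regulator that did not pass in KO (log2 −0.23 ± 0.11, adjusted p = 0.0983).

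Part of the set also differed between times in Control cells, averaged over both genotypes. At 2 h against 0 h, 3 regulators rose and 1 fell, 4 of 8, beside 16.7% of all tested genes. Zc3h12a rose 2.47-fold (log2 1.31 ± 0.09, adjusted p = 2.48e-16), from 17.7, 18.9 and 20.5 CPM to 55.6, 57.1 and 56.8 CPM in the WT libraries. Zfp36 rose 2.02-fold (log2 1.01 ± 0.07, adjusted p = 1.56e-17) and Zc3h12c 1.63-fold (log2 0.71 ± 0.08, adjusted p = 2.07e-09). Zfp36l1 was 1.59-fold lower (log2 −0.67 ± 0.05, adjusted p = 1.86e-14), from 170, 162 and 145 CPM to 123, 112 and 102 CPM in WT. These differences were seen in cells without LPS, what else differed between the 0 h and 2 h cultures is not given in the labels, and the LPS comparisons above were made against the 2 h Control.

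At 24 h against 0 h only Zfp36l1 of the 8 passed, at 1.33-fold lower (log2 −0.41 ± 0.05, adjusted p = 7.84e-08), beside 16.5% of all tested genes. Zc3h12a had a log2 difference of 0.27 ± 0.10 (adjusted p = 0.068), which became a call without KO Control 0 h library 3 (log2 0.36, adjusted p = 0.0159). For this gene 24 h Control means were 25.1 ± 3.17 CPM in WT and 26.4 ± 3.12 in KO.

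Palmitate was compared with Control in the same way. No regulator passed the test at 2 h or 24 h in either genotype (0 of 8 in each of the 4 comparisons by edgeR, and 0 by DESeq2), beside 0.275% (WT) and 0.112% (KO) of all tested genes at 2 h, and 0.852% and 0.877% at 24 h. The 32 log2 differences ran from −0.30 to 0.19, with 95% intervals between −0.54 and 0.42, and 3 had an unadjusted p under 0.05. These were Zfp36 at 2 h in WT and Zfp36l1 at 24 h in both genotypes. Zfp36 had 111, 118 and 112 CPM with palmitate at 2 h against 145, 146 and 129 CPM in WT Control, groups that do not overlap (log2 −0.30 ± 0.09, adjusted p = 0.218), and it was called when only those 6 libraries were fitted (adjusted p = 0.0196). In KO, with 123, 122 and 120 CPM against 115, 114 and 126 CPM, they overlapped. Zfp36l1 at 24 h gave log2 differences of −0.19 ± 0.08 in WT (adjusted p = 0.381) and −0.20 ± 0.08 in KO (adjusted p = 0.383). Libraries did not overlap for 1 and 0 regulators at 2 h (WT and KO) and for 2 and 3 at 24 h, beside 14.9%, 11.2%, 15% and 14.3% of all tested genes. The summed level of the 4 fibroblast markers ran from 0 to 286 CPM across the libraries, with its highest group mean, 101 CPM, in KO palmitate 2 h. High sums came from Col1a1 (up to 195 CPM) and Col1a2 (up to 90.4 CPM), while Dcn and Pdgfra had at most 5 counts in any library. With a library at 286 CPM, a group mean can rest largely on 1 library. The 7 granulocyte precursor markers had their highest group mean, 159 CPM, in KO Control 24 h, and the part of either list in these values was not tested.

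The genotype comparison asked whether the regulators differed between libraries labelled KO and WT within a condition. Rc3h1 at Control 0 h was the only call among 56 (1 of 8 regulators there, beside 12.5% of all tested genes). Its KO libraries had 176, 110 and 179 CPM and its WT libraries 103, 108 and 103 CPM, so that 2 KO libraries stood well above WT and the other barely above it. The difference was 1.47-fold (log2 0.56 ± 0.12, adjusted p = 0.000815). The log2 value lay between 0.45 and 0.77, called each time, on omitting single libraries.

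In the other conditions none of the 8 passed, beside 0.49% of all tested genes at Control 2 h, 0.146% at palmitate 2 h, 0.465% at LPS 2 h, 0.12% at Control 24 h, 0.0688% at palmitate 24 h and 0.146% at LPS 24 h. Rc3h1 was above 0 in all 7 conditions, with log2 differences of 0.24 ± 0.12 at Control 2 h (adjusted p = 0.482), 0.34 ± 0.12 at palmitate 24 h (adjusted p = 0.426) and 0.30 ± 0.12 at LPS 24 h (adjusted p = 0.402), and 0.05 to 0.11 in the other 3. Whether its genotype difference changed from 0 h to a later time was not tested. The 56 values ran from −0.25 to 0.56, and 12 had an unadjusted p under 0.05. Of these, 4 were at Control 0 h, where 12.5% of all tested genes were called after adjustment. The share of all tested genes at that unadjusted level was not computed, here or for the palmitate and interaction counts.

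At Control 0 h the second KO library stood apart from the other KO libraries for Rc3h1 and also for Zc3h12c, at 44.7 CPM against 75.2 and 74.1 CPM. Without it, 4 of 8 regulators passed the test, beside 11.6% of all genes tested in that fit: Rc3h1 (log2 0.77), Zc3h12c (log2 0.41, adjusted p = 0.013), Zfp36l1 (log2 0.25, adjusted p = 0.0445) and Zfp36 (log2 −0.35, adjusted p = 0.0279). With all libraries Zfp36l1 was just outside the threshold (log2 0.21 ± 0.07, adjusted p = 0.0524), with 187, 179 and 187 CPM in KO all above 170, 162 and 145 CPM in WT. Libraries did not overlap for 2 of 8 regulators there, Zfp36l1 and Rc3h1, beside 28% of all tested genes. The same count was 3 of 8 at Control 2 h (Zfp36, Zfp36l2 and Rc3h1, beside 16.9%), 3 at palmitate 2 h (Zfp36, Zc3h12a and Rc3h1, beside 16.1%) and 2 at palmitate 24 h (Zfp36l1 and Rc3h1, beside 12.5%). It was 1 at LPS 24 h (Zfp36, beside 13.4%) and 0 at LPS 2 h and Control 24 h (beside 12.8% and 11.6%).

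**Figure D4:**
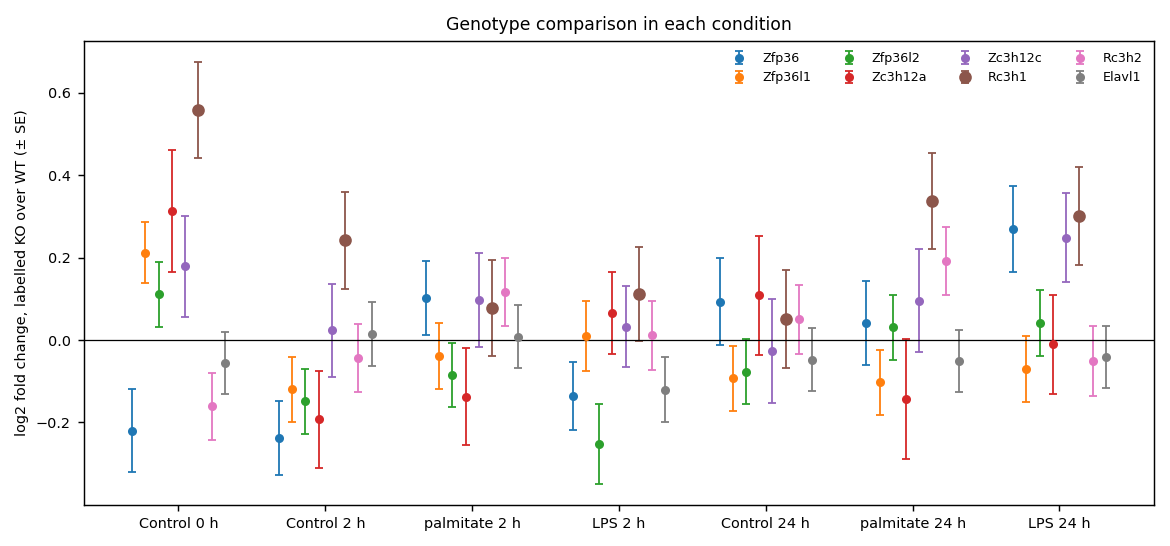
Log2 fold change of libraries labelled KO over WT, with its SE, for each regulator (colours; Rc3h1 in larger brown points) in the 7 conditions on the x axis. Rc3h1 at Control 0 h (0.56) was the single value that passed the test, and it lay above 0 in all 7 conditions.

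The response of the regulators to LPS or palmitate did not differ detectably between the genotypes. In the interaction tests 0 of 8 passed for each stimulus and time by edgeR, and 0 by DESeq2, beside 0% of all tested genes for LPS at 2 h, 0.0086% for LPS at 24 h, 0% for palmitate at 2 h and 0% for palmitate at 24 h. The 32 differences between the genotypes' effects ran from −0.25 to 0.34 on the log2 scale, their 95% intervals lay between −0.65 and 0.61, and 1 had an unadjusted p under 0.05 (Zfp36 with palmitate at 2 h). For LPS the intervals lay between −0.49 and 0.60, and that of Elavl1 at 24 h, among the narrower, ran from −0.20 to 0.22.

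The same comparisons were made for the machinery around the regulators. Of 16 other AU-rich element and stem-loop binding proteins 12 could be tested, and with LPS at 2 h 3 rose in WT (median log2 0.17, all genes −0.01), while 4 rose and 1 fell in KO. Beside these, 23.1% (WT) and 23.9% (KO) of all tested genes were called. N4bp1, an RNA-binding protein with a nuclease domain related to that of Regnase, rose in both, by 1.70 ± 0.07 in WT (adjusted p = 2.82e-25) and 1.86 ± 0.07 in KO (adjusted p = 7.42e-27), and it was still higher at 24 h, by 1.51 ± 0.08 in WT and 1.47 ± 0.08 in KO. Arid5a, known for protecting Il6 messages from Regnase-1, rose by 1.04 ± 0.21 at 2 h and 1.21 ± 0.24 at 24 h in WT. Upf1, the helicase that Regnase-1 works with, did not pass at 2 h and rose at 24 h by 0.54 ± 0.07 in WT (adjusted p = 1.96e-08). Its LPS effect differed between the times in WT (log2 0.43 ± 0.10, adjusted p = 0.000911).

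Of the genes that carry out decay, only the deadenylase list moved in both directions with LPS at 2 h. Over all tested genes, 23.1% in WT and 23.9% in KO were called at 2 h, and 39.5% and 40.9% at 24 h. The counts below were not tested against these shares. Among 18 genes of the CCR4-NOT deadenylase, its adaptors and other deadenylases, 3 rose and 3 fell with LPS at 2 h in WT (median log2 −0.02) and 4 rose and 5 fell in KO (median 0.01). The adaptors Btg2 and Btg1, antiproliferative proteins that bind the deadenylase, rose by 1.31 ± 0.17 and 0.94 ± 0.13 in WT, and Tob2, an adaptor of the same family, fell by 0.61 on the log2 scale. At 24 h 2 rose and 3 fell in WT, and 0 rose and 3 fell in KO. Of 11 decapping and 5′ to 3′ decay genes 4 rose in each genotype at 2 h, led by Pnrc1, a decapping co-activator (log2 1.28 ± 0.08 in WT), and Dcp2, the decapping enzyme, was higher at 2 h by 0.56 ± 0.09 and at 24 h by 0.77 ± 0.09 in WT. None of the 10 RNA exosome genes passed at 2 h in either genotype (median log2 −0.34 in WT and −0.001 in KO), and 1 rose at 24 h in each.

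Of 11 kinases, phosphatases and proteases that act on the regulators, 8 rose and none fell at 2 h in WT (median log2 0.47) and 9 rose in KO (median 0.54), beside 14% and 14.7% of all tested genes that rose. At 24 h 5 were higher and 1 lower in each genotype, beside 39.5% (WT) and 40.9% (KO) of all tested genes called. Malt1, the protease that cleaves Regnase-1 and Roquins, rose by 2.43 ± 0.12 in WT and 2.45 ± 0.11 in KO. Dusp1, the phosphatase that turns off p38, rose by 2.17 ± 0.12 in WT, and Mapkapk2, the kinase that phosphorylates tristetraprolin, by 1.54 ± 0.08. Dusp1 was at 250 ± 20.1 CPM at 2 h and 13.1 ± 2.05 CPM at 24 h of LPS in WT (SD, n = 3). Its Control level was not constant either, at 2 h being above 0 h by 1.62 ± 0.10 on the log2 scale over both genotypes. At Control 0 h, 4 of the 11 were higher in libraries labelled KO, beside 6.4% of all tested genes, with Malt1 among them (log2 0.61 ± 0.13, adjusted p = 0.00133). The count was again 4 with RLE scaling, with DESeq2 and without the second KO library, which stood apart for Rc3h1 and Zc3h12c. In these fits 6.63%, 6.43% and 6.5% of all tested genes were called higher. The count was 2 without the third KO library, beside 3.45% of all tested genes. It was 3 in every other alternative, beside 2.91% to 6.35%.

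Messages known as targets of the regulators rose with LPS at 2 h. Of 17 listed targets 14 could be tested, and all 14 passed upward at 2 h in both genotypes, beside 14% (WT) and 14.7% (KO) of all tested genes. The list was chosen with earlier results of these data known. A gene at 0 in Control, such as Il23a at 2 h, could not pass the expression filter through those libraries. The counts for this list are therefore a description and no test of the regulators. The fitted median log2 fold change was 6.21 in WT and 6.29 in KO, or 5.65 and 5.56 with genes at 0 in every Control library set to their bound of 3 counts per library. At 24 h 13 of the 14 passed upward in each genotype, beside 19.6% (WT) and 19.9% (KO) of all tested genes. The median was 1.87 in WT and 2.39 in KO, or 1.79 and 2.37 with bounds, and Il23a was at or under 3 counts in both groups. Tnf, the classical target of tristetraprolin, was at 72.9 ± 3.65 CPM in WT Control at 2 h and 1988 ± 61.2 CPM with LPS at 2 h (SD, n = 3). With LPS at 24 h Tnf was at 59.4 ± 6.79 CPM, a value not to be set against the 2 h Control. In Control, Tnf was itself higher at 2 h than at 0 h, by 2.10 ± 0.08 on the log2 scale over both genotypes. Against the 24 h Control in WT, Tnf and all other tested targets but Il23a lay above 0 (lowest log2 0.38, with bounds). Il1b went from 3.75 ± 0.402 CPM in the 2 h Control to 723 ± 96.2 CPM with LPS at 2 h, and stood at 41.3 ± 7.63 CPM with LPS at 24 h. Il6, a target of Regnase-1, reached 39 ± 6.07 CPM at LPS 2 h from at most 3 counts in any WT Control library, and was at 0.810 ± 0.415 CPM at 24 h. Nfkbiz, a target of Regnase-1 that encodes an atypical IκB protein, rose by 5.44 ± 0.11 at 2 h and was higher by 1.43 ± 0.12 at 24 h in WT. The LPS effect on these targets declined between the times for 10 of 14 in WT and 9 of 14 in KO, beside 18.1% and 19% of all tested genes that moved down.

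**Figure D5:**
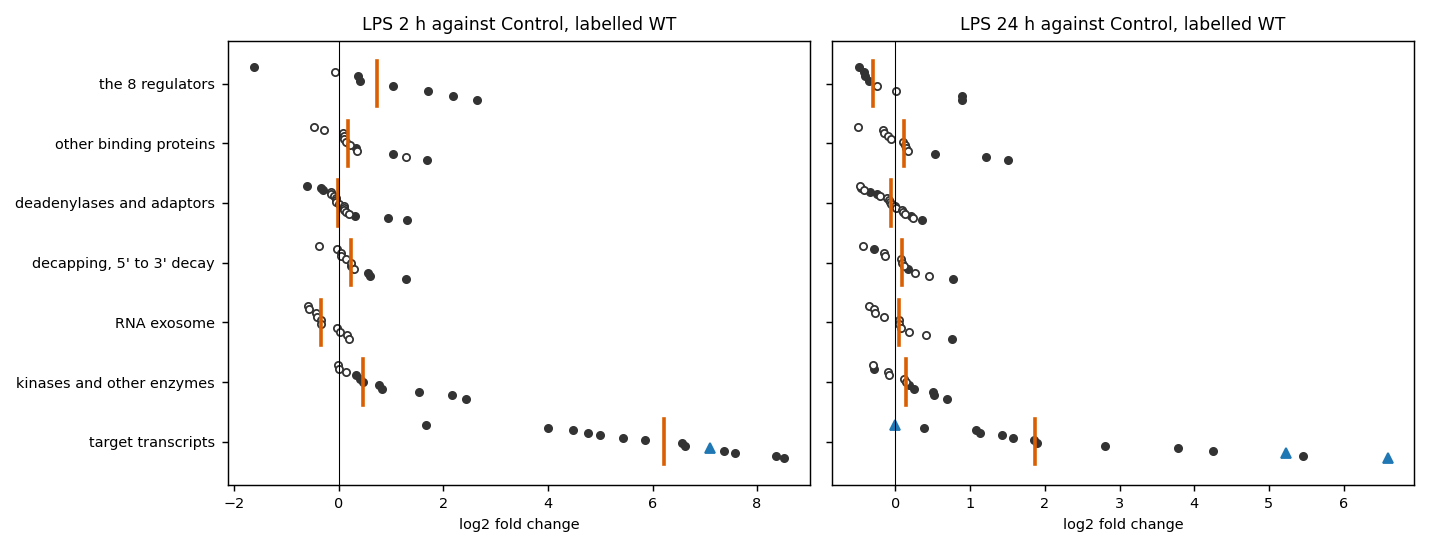
Log2 fold change (x axis) of LPS over Control in libraries labelled WT at 2 h (left) and 24 h (right), for the 8 regulators and the 6 lists of related genes on the y axis; filled points passed the test, open points did not, blue triangles had 0 counts in every Control library, where the fitted value has no fixed scale, and orange bars are list medians. At 2 h all 14 target transcripts lay above 0, while the deadenylase list was centred at −0.02 and the regulators at 0.73.

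Over the 14 group means the regulators fell into like and unlike patterns. These correlations are descriptions over means that share libraries and the strong LPS 2 h groups. Among the regulators Zc3h12a and Zc3h12c were most alike (Pearson r = 0.971), and Zfp36l2 ran opposite to Zc3h12c (r = −0.961). Zfp36l1 had no strong relation to Zfp36 (r = −0.27) or Zfp36l2 (r = 0.27).

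Among tested genes averaging 1 CPM or more, the 3 most like Zfp36 were Zfand5 (r = 0.993), Hivep3 (r = 0.992) and the phosphatase gene Dusp1 (r = 0.991). Zc3h12a was closest to Tnf (r = 0.993), Jdp2 (r = 0.991) and Nfkbia (r = 0.989), and Zc3h12c to Tnip1 (r = 0.995), Cd40 (r = 0.990) and Irf1 (r = 0.990). For Zfp36l2 they included Flcn (r = 0.978) and Cd300lb (r = 0.977). The genes nearest to Rc3h1 were Sf3b1 (r = 0.954), Wsb1 (r = 0.950) and Ptpn12 (r = 0.946), and those nearest to Rc3h2 were Insig1 (r = 0.973), Plaur (r = 0.966) and Frmd6 (r = 0.961). Zfp36l1 (Fgd4, r = 0.922; Cd200r1, r = 0.899; Mid1ip1, r = 0.896) and Elavl1 (Naa15, r = 0.926; Ppp1r18, r = 0.918; 5430427O19Rik, r = 0.903) had the least close neighbours. With Spearman's rho only Dusp1 for Zfp36 and Ppp1r18 for Elavl1 stayed among the 3 nearest.

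Promoter windows from RefSeq (GRCm38.p6, 250 bases before to 50 after the start) were available for 7 of the 8 genes in 8 windows. None held the κB consensus on either strand, which 4.51% of all 32851 windows held. Zfp36 held the CArG consensus, the element known to bind serum response factor, which 1.63% of windows held on either strand. It began 58 bases before the RefSeq start (chr7:28379277-28379286). That place lies inside the gene as GENCODE gives it (chr7:28376784-28380253), so the 2 annotations differ in the start. The windows of the other 6 genes, Zc3h12a and Zc3h12c among them, held no CArG match. Any part of this motif in the measured levels was not tested. The last 100 bases before the RefSeq start are shown for Zfp36 because it alone of the 7 genes held a CArG match. They run 5′ to 3′ on the minus strand, with the CArG match in capitals (chr7:28379229-28379328):
Zfp36: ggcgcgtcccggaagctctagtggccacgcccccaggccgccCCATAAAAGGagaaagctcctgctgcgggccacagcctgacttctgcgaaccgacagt
Zfp36l1 and Rc3h1 each held an AP-1 motif (TGANTCA, either strand), as did 7.81% of windows. A match is no evidence of binding, and the lack of a match says only that these letters were not in this window.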

How the data were processed

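Total RNA of 42 BMDM libraries was sequenced as ribosome-depleted, paired-end reads. The authors deposited raw counts per Ensembl gene, unnormalised; STAR 2.7.3a aligned reads to mm10 and made the counts, the submitters' processing notes also name fastp 0.19.11 and mm9, and the annotation and strand setting are not given in the sources used here. Columns of the count table name a group only, so library numbers follow column order. Symbols, lengths and positions came from GENCODE vM21 (GRCm38/mm10), which gave a symbol to 32620 of 37310 genes. No libraries of a group agreed within sampling noise.

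Counts were fitted with edgeR 4.0.16 (R 4.3.3): filterByExpr, TMM scaling, 1 mean per group, and the quasi-likelihood F test, with Benjamini-Hochberg adjustment over 11624 genes and calls at 0.05. Levels are TMM-scaled CPM, counts normalised to a fixed library size, and SE is the log2 fold change divided by the square root of F. The scripts were tested on simulated data. DESeq2 1.42.0, other scaling (RLE), no expression filter, only the libraries compared, and leaving out each library were alternatives. The named genes were all 8 regulators, then up to 4 genes per list with the smallest p, with Tnf, Il6 and Il1b, the 3 genes most like each regulator, and Irf5 and Lyz2 as label checks. For Zfp36l2, 1 of these 3 genes is not reported here. The regulators and lists were chosen with earlier results of these data known. The table of markers also covered granulocyte precursor (7 genes, 19.3 to 203 CPM summed), B cell (4 genes, 3.06 to 13.0 CPM), dendritic cell (4 genes, 1.79 to 12.2 CPM) and fibroblast genes (4 genes, 0 to 286 CPM).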

Additional observations from a re-analysis of the deposited data

Results flagged for a closer look

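The LPS effect differed between 2 and 24 h for the following regulators, by the test of the difference itself (edgeR, adjusted over all tested genes). In the libraries labelled WT the log2 difference, 24 h minus 2 h, was −1.96 for Zfp36, −0.41 for Zfp36l1, 1.21 for Zfp36l2, −1.30 for Zc3h12a, −1.74 for Zc3h12c, −1.46 for Rc3h1, −0.77 for Rc3h2 and −0.37 for Elavl1. In the libraries labelled KO it was −1.88 for Zfp36, −0.52 for Zfp36l1, 1.43 for Zfp36l2, −1.68 for Zc3h12a, −1.48 for Zc3h12c, −1.08 for Rc3h1 and −0.93 for Rc3h2. For Zc3h12a and Zc3h12c the effect stayed above 0 at both times, whereas for Rc3h2 it passed the test upward at 2 h and downward at 24 h in both genotypes. No regulator passed the test for a different response between the genotypes, and groups of 3 libraries were not searched for outlying values.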

How the results depend on the processing

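No paired analysis was possible because the columns of the count table carry no replicate number. Of 278 recomputed counts of called regulators, 269 stayed within 1.5 times the main count, and none of the 46 called log2 fold changes reversed. With only the libraries compared, palmitate 2 h WT gave 1 call (Zfp36), beside 0.789% of all genes tested in that fit. KO against WT at Control 0 h gave 2 calls with RLE factors and 2 with DESeq2 (Zfp36l1 added), beside 12.1% and 12% of all tested genes. Leaving out each library gave 1 to 4 calls there, beside 6.18% to 11.6%. At LPS 2 h the genotype comparison gave 0 to 1 calls leaving out each library. The call was Zfp36l2 without KO LPS 2 h library 1, beside 0.424% of all genes tested in that fit. Without the expression filter palmitate 24 h gave 1 genotype call (Rc3h1), beside 0.298% of all genes in that fit. Control 24 h against 0 h then gave 2 (Zc3h12a added), beside 7.08%. Leaving out libraries gave 1 to 2 in this time comparison, with 2 beside 13.9% without KO Control 0 h library 3. Values near 0 changed sign: Elavl1 at LPS 24 h in WT became −0.0064 (RLE), −0.0082 (no filter), −0.0054 (libraries compared) and −0.0074 (DESeq2), and −0.029 to 0.051 leaving out libraries; in KO it became −0.0010, −0.0023 and −0.0021 (RLE, no filter, DESeq2), and −0.040 to 0.047. Zfp36l1 at LPS 2 h in KO ranged from −0.088 to 0.12. The causes were not tested. Libraries of a group differed by more than counting error (chi-square per degree of freedom 1.93 to 9.32, over 9883 to 10873 genes), and every regulator had at least 98 counts in each library.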
